A study of Macaca mulatta with 43 samples.

Results

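The microglia marker genes described here were AIF1, CX3CR1, CSF1R, P2RY12, C1QA, C1QB, C1QC, TREM2 and TYROBP. Every probeset that the annotation of the Affymetrix Rhesus Macaque array assigns to a single one of these symbols was taken, which gave 12 probesets of 9 genes, of 25317 probesets of 14132 genes with a symbol. P2RY12, AIF1 and C1QA had 2 probesets each, which target the same transcript and are not independent of each other, and the other genes had 1. All 12 probesets passed the filter on low values.

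RNA was measured in medial prefrontal cortex (Brodmann areas 24, 25 and 32, pooled for each animal) of 43 adult male rhesus macaques aged 5 to 11 years, 1 array an animal. The 32 ethanol animals were brought to drinking by schedule-induced polydipsia and then had 22 hours a day of access to 4% (w/v) ethanol beside water for 1 year. The 11 control animals, called water controls in the labels, received a maltose dextran solution matched in calories beside water and were matched in age within a cohort. All animals were housed singly. Cohort 4 held 11 ethanol animals and no control, cohort 5 held 8 ethanol and 5 control animals, cohort 7a held 8 ethanol and 4 control animals, and cohort 7b held 5 ethanol and 2 control animals. RNA of cohorts 4 and 5 was extracted with another kit and hybridized in an earlier processing group than RNA of cohorts 7a and 7b, so that a level set between these 2 sets of cohorts cannot be told apart from processing.

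Microglia are the resident macrophages of the brain. In their surveying state they hold high amounts of the purinergic receptor P2RY12, which directs their processes toward released nucleotides, and of the fractalkine receptor CX3CR1, through which neurons signal to them. They depend on CSF1R for survival, sense lipids and debris through TREM2 and its adaptor TYROBP, and are the main brain source of C1q, the recognition molecule of the classical complement pathway. The tissue was not sorted, so that fewer microglia and less of an RNA in each microglial cell cannot be told apart in these values.

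Pairs of the 43 arrays correlated at 0.948 to 0.995 over all probesets, and array medians lay between 5.74 and 5.87 on the log2 scale of the robust multi-array average (RMA), on which all values below are given. Group means of the fixed marker lists were 10.66 to 11.13 for neurons (5 of 8 markers measured), 11.52 to 11.96 for astrocytes (5 of 7), 10.76 to 11.09 for oligodendrocytes (3 of 7) and 7.26 to 7.58 for the microglia markers (9 of 9, 1 probeset a gene). Lymphocyte markers averaged 4.66 to 4.79, below every array median, and border macrophage and monocyte markers averaged 5.77 to 6.02.

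Across the cohorts, with cohort as a block, the microglia markers divided by gene. Both P2RY12 probesets, CX3CR1, TYROBP and 1 of the 2 AIF1 probesets were lower in the ethanol animals, by 0.20 to 0.58 on the log2 scale, whereas CSF1R, TREM2, all probesets of the 3 C1q chains and the second AIF1 probeset did not pass the test. In all, 5 of 12 member probesets (41.7%) passed at an adjusted p under 0.05, all 5 of them lower, beside 33.3% of the 24151 probesets tested on the array (21.5% lower and 11.8% higher). The median difference was -0.09 over the 12 probesets and -0.04 over all tested probesets, and 9 of the 12 differences were negative. When array medians were centred, the calls over all tested probesets were 3687 lower and 3895 higher, against 5202 lower and 2842 higher without centring, and the same 5 member probesets were called.

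Within cohorts the counts were uneven. In cohort 5 none of the 12 probesets passed, beside 0% of all tested probesets in the same limma fit (731 of these had an unadjusted p under 0.05, and limma on cohort 5 alone called 1), and the groups overlapped for every member probeset. In cohort 7a, 6 of 12 probesets (50.0%) were lower and 0 higher, beside 30.9% of all tested probesets (20.3% lower and 10.6% higher). In cohort 7b, 3 were lower and 2 higher (41.7%), beside 40.1% of all tested probesets (26.1% lower and 14% higher). The mean of the differences in cohorts 7a and 7b differed from that in cohort 5 for 7 of 12 probesets (58.3%), 6 of them more negative and 1 more positive, beside 31.6% of all tested probesets (21.3% more negative and 10.3% more positive). Without cohort 7a the count over all cohorts was 0 of 12, and without cohort 7b it was 1 of 12. The count over all tested probesets also fell in each of these fits, as given in the closing section on processing. The loss of calls was thus not particular to the member probesets. With centred medians the splits over all tested probesets were 3011 lower and 3632 higher in cohort 7a, 4845 lower and 4846 higher in cohort 7b, and 3496 more negative and 3629 more positive for the difference between cohorts.

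**Figure D1:**
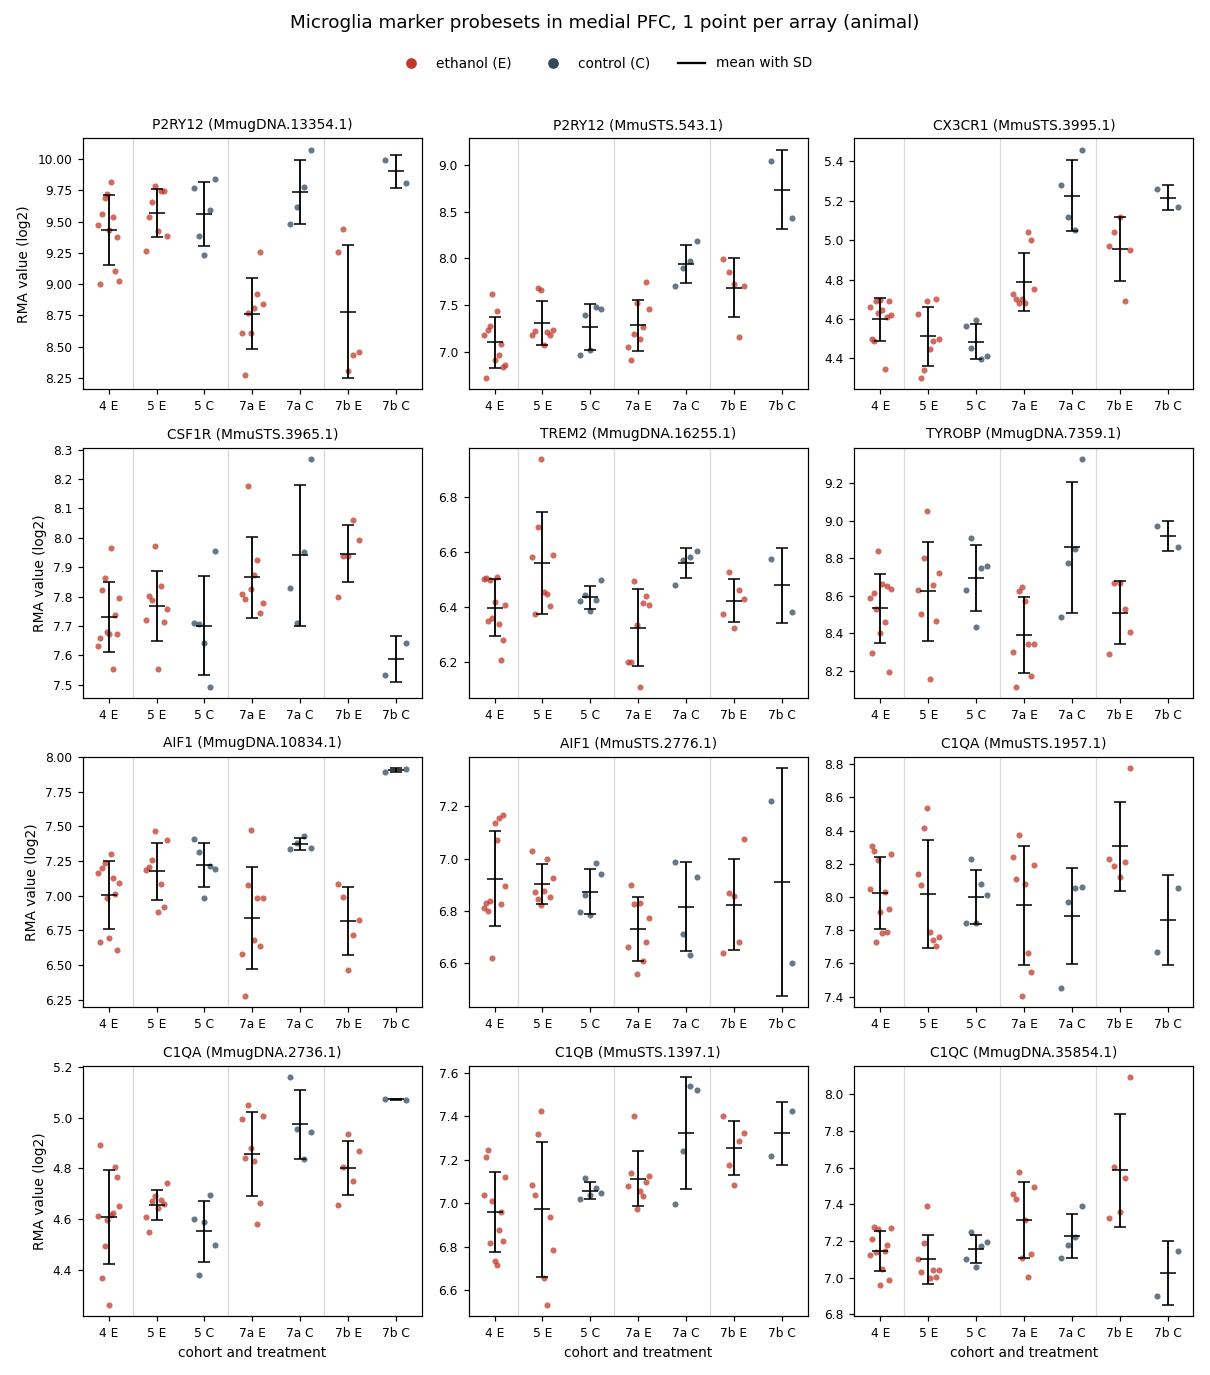
RMA values (log2, vertical axes, a separate range for each panel) of the 12 member probesets in the 7 groups of cohort and treatment (horizontal axes: E, ethanol; C, control), with 1 point per animal and bars for the mean and SD. The P2RY12 probeset MmugDNA.13354.1 sits at 8.27 to 9.44 in the 13 ethanol animals of cohorts 7a and 7b and at 9.48 to 10.07 in their 6 controls, while the cohort 5 groups overlap.

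Of the surface receptors, P2RY12 differed most. On the brighter probeset, MmugDNA.13354.1.S1_at, the 8 ethanol animals of cohort 7a read 8.27 at the lowest, 8.79 at the median and 9.26 at the highest, against 9.48, 9.61, 9.78 and 10.07 in the 4 controls. The 5 ethanol animals of cohort 7b read 8.30, 8.44, 8.46, 9.26 and 9.44, against 9.81 and 9.996 in the 2 controls. Every one of the 13 ethanol animals of cohorts 7a and 7b was thus below every one of the 6 controls, a separation that 2.57% of all tested probesets showed in this direction. In cohort 5 the probeset averaged 9.57 ± 0.19 (SD) in the 8 ethanol animals and 9.56 ± 0.26 (SD) in the 5 controls, and the 2 groups overlapped throughout.

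The difference of this P2RY12 probeset was -0.97 in cohort 7a (SE 0.17, adjusted p = 4.17e-05 in limma), a level 0.509 times that of controls, and -1.12 in cohort 7b (SE 0.24, adjusted p = 0.000183). The 3 lowest ethanol values of cohort 7b (8.30, 8.44 and 8.46) all came from the processing batch that held no control. Cohort 7b alone with the batch as a block gave -0.36. That value rests on ethanol replicate 40 against control replicate 38, since the treatments of this cohort shared no other batch. In cohort 5 the difference was 0.00 (95% confidence interval -0.32 to 0.33, adjusted p = 1). The difference between these effects, cohorts 7a and 7b minus cohort 5, was -1.05 (SE 0.22, adjusted p = 0.000251). Over all cohorts it came to -0.58 (SE 0.13, adjusted p = 0.00071), and to -0.44 with the processing batch as a block (adjusted p = 0.00655). Ordered by mean, the groups ran from ethanol 7a (8.76 ± 0.28) and ethanol 7b (8.78 ± 0.53) through ethanol 4 (9.43 ± 0.28), control 5 and ethanol 5 to control 7a (9.74 ± 0.25) and control 7b (9.90 ± 0.13), and neighbours in that order lay apart by less than the larger of their SDs except at the step between ethanol 7b and ethanol 4.

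The second P2RY12 probeset, MmuSTS.543.1.S1_at, went the same way. In cohort 7a the ethanol animals read 6.92 at the lowest, 7.23 at the median and 7.75 at the highest, against 7.71, 7.89, 7.98 and 8.19 in controls, and 7 of 8 ethanol animals lay below all controls. The cohort 7b ethanol animals read 7.17, 7.71, 7.73, 7.85 and 7.99, against 8.44 and 9.03 in controls, without overlap. The differences were -0.65 in cohort 7a (SE 0.16, adjusted p = 0.00145), -1.04 in cohort 7b (SE 0.21, adjusted p = 0.000114) and 0.04 in cohort 5 (95% confidence interval -0.25 to 0.33, adjusted p = 1). Over all cohorts the difference was -0.43 (SE 0.11, adjusted p = 0.00326). It was -0.28 without cohort 7b (adjusted p = 0.1) and -0.25 with each array's actin value in the model (adjusted p = 0.121), and did not pass in either. The 2 P2RY12 probesets correlated at 0.64 over the 43 arrays once group means had been taken out.

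CX3CR1, which binds the fractalkine that neurons carry and shed, was a dim probeset that lay below the array median in every group. Its values in cohort 7a ethanol animals ran from 4.68 through a median of 4.72 to 5.04, against 5.05, 5.12, 5.28 and 5.46 in controls. In cohort 7b they were 4.69, 4.95, 4.97, 5.04 and 5.12 in ethanol animals, against 5.17 and 5.26 in controls. Within each of these cohorts the groups did not overlap. The difference was -0.44 in cohort 7a (SE 0.08, adjusted p = 0.000104), -0.26 in cohort 7b (SE 0.11, adjusted p = 0.067, but -0.30 and 0.0371 without ethanol replicate 41) and 0.03 in cohort 5 (95% confidence interval -0.13 to 0.18, adjusted p = 1). The effects of cohorts 7a and 7b differed from that of cohort 5 by -0.38 (SE 0.11, adjusted p = 0.0053). The difference over all cohorts, -0.20 (SE 0.06, adjusted p = 0.00761), no longer passed with the processing batch as a block (-0.12, adjusted p = 0.163) or with no block at all (-0.21, adjusted p = 0.113).

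CSF1R, the receptor for the growth factors CSF1 and IL34, did not go with the other receptors. In cohort 7b it read 7.80, 7.94, 7.94, 7.99 and 8.06 in ethanol animals, against 7.53 and 7.64 in controls, so that all ethanol animals were higher, by 0.36 (SE 0.12, adjusted p = 0.0123). In cohort 7a the ethanol animals read 7.74 at the lowest, 7.82 at the median and 8.18 at the highest, against 7.71, 7.83, 7.95 and 8.27 in controls, with a difference of -0.07 (95% confidence interval -0.25 to 0.10, adjusted p = 0.54). Over all cohorts the difference was 0.07 (95% confidence interval -0.04 to 0.19, adjusted p = 0.345). The cohort 7b call was lost without control replicate 37 (0.30, adjusted p = 0.144).

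**Figure D2:**
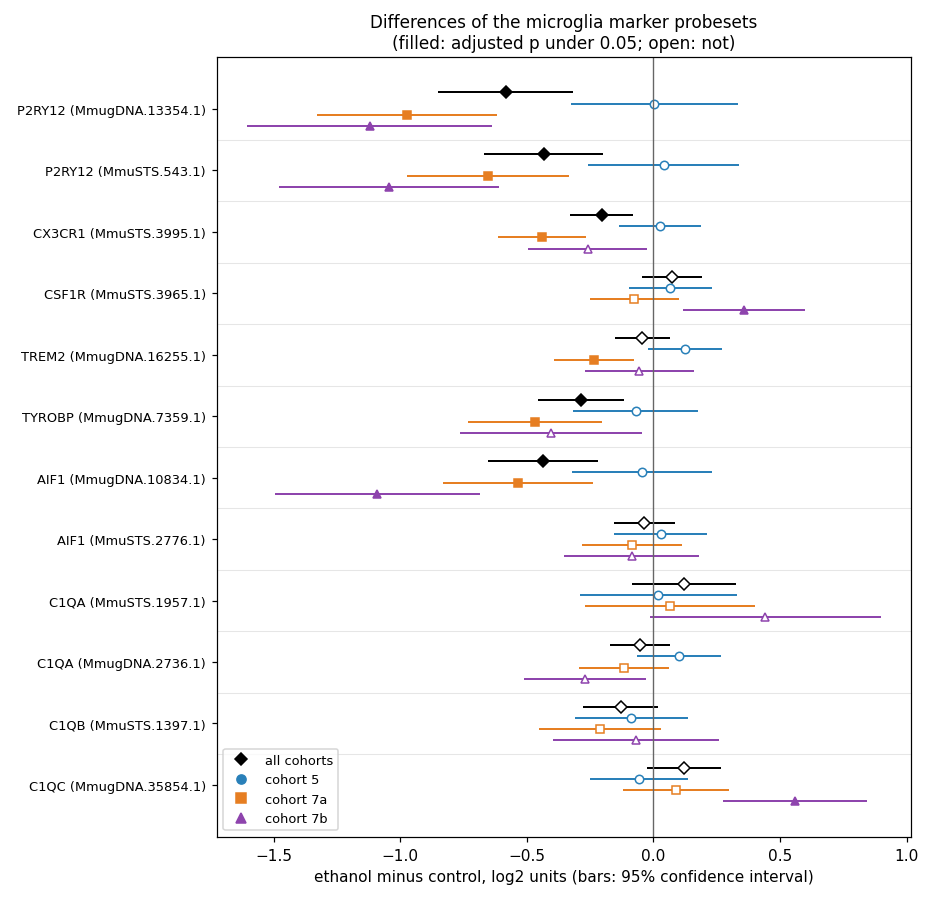
Ethanol minus control differences (horizontal axis, log2 units) of the 12 member probesets over all cohorts and within cohorts 5, 7a and 7b, with bars for the 95% confidence interval and filled symbols where the adjusted p was under 0.05. Both P2RY12 probesets lie at or below -0.43 in every comparison but cohort 5, where all 12 symbols are open and lie between -0.09 and 0.12.

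TREM2 and TYROBP act as a pair, the first as the sensing receptor and the second as the adaptor that passes its signal on. TYROBP was read by a probeset whose type can also bind other transcripts (suffix _s_at). It read 8.11 at the lowest, 8.34 at the median and 8.65 at the highest in cohort 7a ethanol animals, against 8.49, 8.77, 8.85 and 9.33 in controls, and 5 of 8 ethanol animals were below all controls. In cohort 7b it read 8.29, 8.41, 8.53, 8.67 and 8.67 in ethanol animals, against 8.86 and 8.97 in controls, without overlap.

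The TYROBP difference was -0.47 in cohort 7a (SE 0.13, adjusted p = 0.00491) and -0.41 in cohort 7b (SE 0.18, adjusted p = 0.0628), beside -0.07 in cohort 5 (95% confidence interval -0.31 to 0.17, adjusted p = 1). The cohort 7a call was lost without control replicate 28, whose 9.33 was the highest value of that group (-0.31, adjusted p = 0.0809). Over all cohorts TYROBP fell by 0.29 on the log2 scale (SE 0.08, adjusted p = 0.00658), and by 0.28 with the processing batch as a block (adjusted p = 0.012). The effects of cohorts 7a and 7b differed from that of cohort 5 by -0.37 (SE 0.16, adjusted p = 0.0807). That difference passed with the processing batch as a block (-0.40, adjusted p = 0.0435) and without control replicate 25 of cohort 7a (-0.43, adjusted p = 0.0341). The cohort 7b difference passed in that cohort alone (adjusted p = 0.046) and without ethanol replicate 41 (adjusted p = 0.049).

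TREM2 moved less. Cohort 7a ethanol animals ran from 6.11 through a median of 6.37 to 6.49, against 6.48, 6.57, 6.58 and 6.60 in controls, and 7 of 8 ethanol animals were below all controls. In cohort 7b the values were 6.32, 6.37, 6.43, 6.46 and 6.53 in ethanol animals, against 6.38 and 6.58 in controls, and the groups overlapped. The cohort 7a difference was -0.23 (SE 0.08, adjusted p = 0.0177), and it did not pass with array medians centred (-0.17, adjusted p = 0.111), in cohort 7a alone (adjusted p = 0.0534) or without control replicate 28 (adjusted p = 0.0582). In cohort 5 the difference was 0.12 (95% confidence interval -0.02 to 0.27, adjusted p = 1), and over all cohorts it was -0.04 (95% confidence interval -0.15 to 0.06, adjusted p = 0.548). The effects of cohorts 7a and 7b differed from that of cohort 5 by -0.27 (SE 0.10, adjusted p = 0.0286), which was lost with centred medians (adjusted p = 0.167), without control replicate 37 of cohort 7b (adjusted p = 0.121) and without control replicate 14 of cohort 5 (adjusted p = 0.0505).

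AIF1 encodes IBA1, the calcium-binding protein of the cytoskeleton that is stained to count microglia, and its 2 probesets disagreed. On MmugDNA.10834.1.S1_at the cohort 7a ethanol animals read 6.28 at the lowest, 6.83 at the median and 7.47 at the highest, against 7.34, 7.34, 7.38 and 7.43 in controls, where 7 of 8 ethanol animals were below all controls and 1 was above them. In cohort 7b the ethanol animals read 6.46, 6.71, 6.82, 6.99 and 7.09, against 7.89 and 7.92 in controls, without overlap. The difference was -0.54 in cohort 7a (SE 0.14, adjusted p = 0.00426) and -1.09 in cohort 7b (SE 0.20, adjusted p = 2.01e-05), a level 0.47 times that of controls. In cohort 5 it was -0.05 (95% confidence interval -0.32 to 0.23, adjusted p = 1). The effects of cohorts 7a and 7b differed from that of cohort 5 by -0.77 (SE 0.18, adjusted p = 0.00111), and the difference over all cohorts was -0.44 (SE 0.11, adjusted p = 0.00149).

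On the second AIF1 probeset, MmuSTS.2776.1.S1_at, the differences were -0.08 in cohort 7a (95% confidence interval -0.28 to 0.11), -0.09 in cohort 7b (95% confidence interval -0.35 to 0.18) and -0.04 over all cohorts (adjusted p = 0.666). Without control replicate 38 the cohort 7b difference was -0.39 and passed (adjusted p = 0.0491). The 2 AIF1 probesets correlated at -0.26 over the 43 arrays with group means taken out, and the position of each in the transcript was not known from the files.

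C1QA, C1QB and C1QC encode the 3 chains that assemble into C1q and are neighbouring genes on macaque chromosome 1. In the fit with a mean for each of the 7 groups, the only 1 of their 4 probesets called within a cohort was that of C1QC, which rose in cohort 7b. C1QC read 7.33, 7.36, 7.54, 7.60 and 8.09 in cohort 7b ethanol animals, against 6.90 and 7.15 in controls, so that all ethanol animals were higher, by 0.56 (SE 0.14, adjusted p = 0.00108). In cohort 7a it read 7.01 at the lowest, 7.37 at the median and 7.57 at the highest in ethanol animals, against 7.11, 7.18, 7.22 and 7.39 in controls, a difference of 0.09 (95% confidence interval -0.12 to 0.29, adjusted p = 0.541). The C1QC effects of cohorts 7a and 7b differed from that of cohort 5, which was -0.06 (95% confidence interval -0.25 to 0.13), by 0.38 (SE 0.13, adjusted p = 0.0192). The contrast with the processing batch as a block, which pooled cohort 4 with cohort 5, gave 0.22 (adjusted p = 0.148). Both C1QC calls were lost without control replicate 37 of cohort 7b (0.44, adjusted p = 0.0662 in cohort 7b, and 0.32, adjusted p = 0.0871 between cohorts), and the first also in cohort 7b alone (adjusted p = 0.0553).

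The 2 C1QA probesets differed from each other. MmuSTS.1957.1.S1_at read 8.12, 8.19, 8.21, 8.23 and 8.78 in cohort 7b ethanol animals, against 7.67 and 8.05 in controls, a difference of 0.44 that did not pass (95% confidence interval -0.01 to 0.89, adjusted p = 0.113) but did with centred medians (0.54, adjusted p = 0.0476). Over all cohorts it differed by 0.12 (adjusted p = 0.375). MmugDNA.2736.1.S1_at, which lay below the array median throughout, read 4.66, 4.75, 4.80, 4.87 and 4.94 in cohort 7b ethanol animals, against 5.07 and 5.07 in controls. Its differences were -0.27 in cohort 7b (SE 0.12, adjusted p = 0.0644, but -0.30 and 0.0431 without ethanol replicate 41), -0.12 in cohort 7a (adjusted p = 0.315) and 0.10 in cohort 5 (adjusted p = 1). The effects of cohorts 7a and 7b differed from that of cohort 5 by -0.30 (SE 0.11, adjusted p = 0.0328), a call that was lost with centred medians (adjusted p = 0.162), with the actin value (adjusted p = 0.066), with the batch as a block (adjusted p = 0.0661) and without any of control replicates 13, 16, 25, 37 and 38 (adjusted p between 0.057 and 0.0838). These 2 probesets correlated at 0.13 over the 43 arrays with group means taken out. C1QB differed by -0.13 over all cohorts (95% confidence interval -0.27 to 0.01, adjusted p = 0.161), with -0.09, -0.21 and -0.07 in cohorts 5, 7a and 7b, none of which passed.

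Non-overlap of the groups followed the same lines. In cohort 7a, 2 of 12 probesets had all ethanol animals lower (P2RY12 on MmugDNA.13354.1.S1_at and CX3CR1), beside 6.49% of all tested probesets. In cohort 7b, where only 2 controls were measured, 6 had all ethanol animals lower (both P2RY12 probesets, CX3CR1, TYROBP, AIF1 on MmugDNA.10834.1.S1_at and C1QA on MmugDNA.2736.1.S1_at), beside 27.6% of all tested probesets. All ethanol animals of cohort 7b were higher for 3 (CSF1R, C1QA on MmuSTS.1957.1.S1_at and C1QC), beside 15.6%.

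The arrays of cohorts 7a and 7b came from 5 processing batches, of which 4 held both treatments and the last held 4 ethanol animals and no control. Both P2RY12 probesets, CX3CR1, TREM2, TYROBP and AIF1 on MmugDNA.10834.1.S1_at were lower in ethanol animals in 4 of these 4 batches. TREM2 differed by only -0.29 to -0.01 there. The share of all tested probesets lower in 4 of 4 batches was not counted, so that no background stands beside this count. The within-batch differences ran between -1.25 and -0.59 for P2RY12 on MmugDNA.13354.1.S1_at, between -1.72 and -0.28 on MmuSTS.543.1.S1_at, between -0.45 and -0.29 for CX3CR1, between -0.67 and -0.34 for TYROBP, and between -0.85 and -0.53 for AIF1 on MmugDNA.10834.1.S1_at. Control replicates 27 and 37 were each the only control of their batch. Replicate 37 is of cohort 7b, but the 3 ethanol animals of its batch were of cohort 7a, so that its differences also compare cohorts. The batch of replicate 37 gave the -1.72 of P2RY12, the -0.45 of CX3CR1 and the -0.85 of AIF1. Another batch set ethanol replicate 39 of cohort 7b, beside an ethanol animal of cohort 7a, against control replicates 25 and 26 of cohort 7a. C1QC was lower in 0 of 4, with differences between 0.10 and 0.28. In the 3 batches of cohorts 4 and 5 P2RY12 on MmugDNA.13354.1.S1_at differed by -0.26 to 0.23, with a lower mean in 2 of 3. All controls of these batches were of cohort 5, so that their differences also compare cohorts. With cohorts 7a and 7b alone and the batch as a block, the same 5 member probesets were called as over all cohorts, and P2RY12 on MmugDNA.13354.1.S1_at differed by -0.86 (adjusted p = 0.000192). The share of all tested probesets called in that fit is not given here, so that no background stands beside these 5. Within cohort 7b alone with the batch as a block, the difference rests on ethanol replicate 40 and control replicate 38 only, so that this fit cannot test the cohort.

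**Figure D3:**
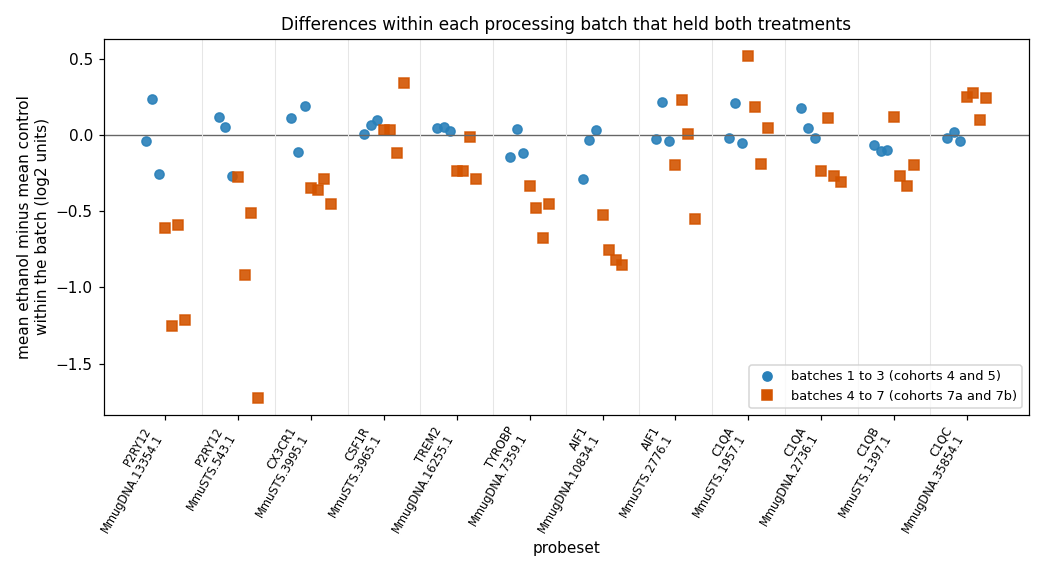
Difference of the mean ethanol and mean control value (vertical axis, log2 units) of each member probeset (horizontal axis) within the 7 processing batches that held both treatments, 1 point per batch. The 4 batches of cohorts 7a and 7b (squares) all lie below 0 for both P2RY12 probesets, CX3CR1, TREM2, TYROBP and the AIF1 probeset MmugDNA.10834.1, and all above 0 for C1QC. In the batch of control replicate 37 (cohort 7b) all ethanol animals are of cohort 7a. In the batch of control replicates 25 and 26 (cohort 7a) ethanol replicate 39 is of cohort 7b. The batches of cohorts 4 and 5 (circles) hold controls of cohort 5 only.

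The array carries probesets at the 3′ and the 5′ end of beta-actin and of GAPDH, from which RNA integrity and labelling are judged. The log2 difference of the actin probesets was 1.26 ± 0.21 (SD) in the 8 ethanol animals of cohort 7a and 0.82 ± 0.06 (SD) in the 4 controls, without overlap (0.93 to 1.60 against 0.76 to 0.87). It was 1.10 ± 0.37 (SD) in the 5 ethanol animals of cohort 7b and 0.78 ± 0.04 (SD) in the 2 controls, and 4.54 ± 0.20 in cohort 5 ethanol animals and 4.50 ± 0.21 in controls. The GAPDH value was 1.27 ± 0.13 in cohort 7a ethanol animals and 1.08 ± 0.08 in controls, but lay the other way in cohort 7b, at 0.91 ± 0.28 in ethanol animals and 1.05 ± 0.13 in controls. Across the 19 arrays of cohorts 7a and 7b, with group means taken out, the actin value correlated with the P2RY12 probeset MmuSTS.543.1.S1_at at -0.59 and with CX3CR1 at -0.47, but with the P2RY12 probeset MmugDNA.13354.1.S1_at at -0.06 and with AIF1 on MmugDNA.10834.1.S1_at at -0.16, as a description of arrays that share batches. With the actin value in the model, 2 of 12 probesets were called over all cohorts, beside 3775 of the 24151 probesets tested. These 2 were P2RY12 on MmugDNA.13354.1.S1_at (-0.54, adjusted p = 0.0106) and AIF1 on MmugDNA.10834.1.S1_at (-0.34, adjusted p = 0.0364), while TYROBP stood at -0.24 (adjusted p = 0.0628) and CX3CR1 at -0.15 (adjusted p = 0.111). In cohort 7a the same model called 3 of 12, beside 4712 of all tested probesets. These 3 were P2RY12 on MmugDNA.13354.1.S1_at (-1.07, adjusted p = 0.000189), CX3CR1 (-0.40, adjusted p = 0.00294) and TYROBP (-0.45, adjusted p = 0.0304).

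**Figure D4:**
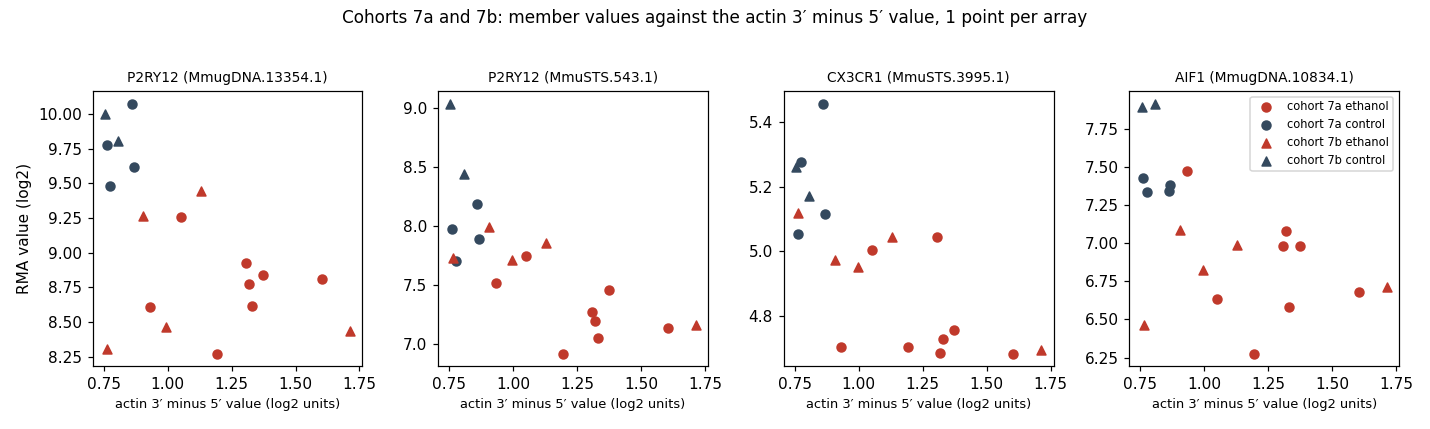
RMA values (vertical axes, log2) of 4 member probesets against the actin 3′ minus 5′ value (horizontal axes, log2 units) in the 19 animals of cohorts 7a (circles) and 7b (triangles), ethanol in red and control in blue. The 6 controls lie at actin values of 0.75 to 0.87 and the 13 ethanol animals at 0.76 to 1.71. The ethanol animal at 0.76, from the batch without a control, reads 8.30 for P2RY12 on MmugDNA.13354.1 and 6.46 for AIF1, below all controls. It reads 7.73 for P2RY12 on MmuSTS.543.1 and 5.12 for CX3CR1, within the ranges of the controls (7.71 to 9.03 and 5.05 to 5.46).

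The members did not vary as 1 block from animal to animal. With 1 probeset a gene and group means taken out, the 36 pairs among the 9 genes correlated at a median of 0.27 over the 43 arrays, from -0.31 to 0.82, with 29 pairs positive and 5 over 0.5. The highest pairs were C1QA with C1QC (0.82) and C1QA with C1QB (0.76), followed by CSF1R with TYROBP (0.59), C1QB with C1QC (0.56) and AIF1 with TYROBP (0.52). TYROBP went with the mean of the other 8 at 0.65, AIF1 at 0.39, P2RY12 (on MmugDNA.13354.1.S1_at) at 0.25 and CX3CR1 at -0.01. All of these were called lower over all cohorts, so that the called genes include those that followed the rest most and least within groups. The second P2RY12 probeset went with TYROBP at 0.52, AIF1 on MmugDNA.10834.1.S1_at at 0.48 and TREM2 at 0.45, and with the other genes at 0.263 or under. Of 13696 other genes, the ones that followed the members' mean most closely were PHF10 (0.76), YBX1 (0.75), LOC710614 (0.71), SCRN2 (0.71), SLC2A5 (0.71), BLNK (0.69), IKBKB (0.68), TMEM120A (0.68), SRGN (0.67) and YEATS4 (0.66), and none of these was in a list given below.

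Genes that act with the members were taken from fixed lists, with 1 probeset a gene. Over all cohorts, 18 of 65 tested genes of the 5 pathway lists were lower and 4 higher in ethanol animals, beside 21.5% lower and 11.8% higher of all tested probesets, against which the counts of each list below are also to be read. In cohort 5 the same count was 0 in each direction, beside 0% of all tested probesets in limma. Of 12 ligands and regulators of the members, 4 fell and 0 rose, with a median difference of -0.02. Those with the same sign in every cohort were TGFB1, the cytokine that maintains microglial identity (-0.17, SE 0.06, adjusted p = 0.0292), its receptor chain TGFBR1 (-0.17, SE 0.06, adjusted p = 0.041) and PLCG2, the phospholipase downstream of TREM2 (-0.17, SE 0.06, adjusted p = 0.0432), and none of these 3 probesets passed with centred medians. The fourth was the receptor chain TGFBR2 (-0.19, adjusted p = 0.0135), whose difference in cohort 5 was 0.03. Further probesets differed by -0.10 for TGFB1 (adjusted p = 0.152) and by -0.05 and 0.01 for TGFBR1 (adjusted p = 0.534 and 0.886). A second PLCG2 probeset fell by 0.22 on the log2 scale (adjusted p = 0.00512) and passed with centred medians (adjusted p = 0.0164). CX3CL1, the ligand of CX3CR1, differed by -0.03 (adjusted p = 0.717), and the CSF1R ligands CSF1 and IL34 differed by -0.05 (adjusted p = 0.519) and 0.08 (adjusted p = 0.235).

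Among 5 microglial transcription factors, 0 fell and 1 rose, with a median of 0.08. IRF8, a factor that microglia of mice need to develop, was higher by 0.59 on its brightest probeset (MmugDNA.9914.1.S1_at, SE 0.10, adjusted p = 6.46e-05). That probeset averaged 9.81 ± 0.35 (SD) in the 8 ethanol animals of cohort 7a and 8.79 ± 0.30 (SD) in the 4 controls, without overlap (9.42 to 10.42 against 8.43 to 9.12). The other 2 IRF8 probesets went the opposite way, by -0.18 on MmugDNA.8826.1.S1_at (adjusted p = 0.0133) and by -0.09 on MmuSTS.164.1.S1_at (adjusted p = 0.309), so that the files give no single direction for IRF8.

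Of 15 complement genes outside C1q, 5 fell and 0 rose, with a median of -0.06. C5AR1, the receptor for the C5a fragment, fell by 0.26 on the log2 scale (SE 0.07, adjusted p = 0.00239) and kept its call with centred medians (-0.21, adjusted p = 0.00643). It averaged 6.76 ± 0.13 (SD) in the 8 ethanol animals of cohort 7a and 7.25 ± 0.25 (SD) in the 4 controls. C7, a part of the membrane attack complex (-0.15, adjusted p = 0.0274), and CD46, a complement regulator on cell surfaces (-0.14, adjusted p = 0.0389), did not keep theirs. The serine protease C1S, which C1q activates together with C1R (-0.23, adjusted p = 0.03), and the macrophage receptor VSIG4 (-0.26, adjusted p = 0.0348) were the other called genes, with the opposite sign in cohort 5 (0.01 and 0.09).

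Of 23 other microglia-enriched genes, 6 fell and 2 rose, with a median of -0.10. The tetraspanin CD53 (-0.41, SE 0.13, adjusted p = 0.0164), the leukocyte phosphatase PTPRC, also called CD45 (-0.27, SE 0.08, adjusted p = 0.00533), and the phagocytic receptor MERTK (-0.21, SE 0.06, adjusted p = 0.00763) fell, and the actin-binding protein CORO1A rose (0.15, SE 0.04, adjusted p = 0.00813), as did the lysosomal glycoprotein CD68 (0.14, adjusted p = 0.0307, with -0.06 in cohort 5). A second probeset of CD53 fell by 0.41 on the log2 scale (adjusted p = 0.00113) and another differed by 0.10 (adjusted p = 0.167). Further PTPRC probesets differed by -0.23 (adjusted p = 0.00136), -0.13 (adjusted p = 0.361) and 0.01 (adjusted p = 0.921), and the second MERTK probeset by -0.11 (adjusted p = 0.37). PTPRC averaged 5.59 ± 0.25 (SD) in the 8 ethanol animals of cohort 7a and 6.002 ± 0.19 (SD) in the 4 controls, and 5.75 ± 0.18 (SD) in the 5 ethanol animals of cohort 7b and 6.33 ± 0.27 (SD) in the 2 controls. The other called genes fell as well, with the opposite sign in cohort 5. MS4A7, on the brightest of its 3 probesets, had the largest fall of the list (-0.58, adjusted p = 0.0122), with -1.39 in cohort 7a (adjusted p = 6.59e-05) and 0.05 in cohort 5. LY86 fell by 0.18 on the log2 scale (adjusted p = 0.0197) and LY96 by 0.17 (adjusted p = 0.0415). TMEM119, a surface protein particular to microglia in brain, differed by -0.06 (adjusted p = 0.507).

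Of 10 genes of responding microglia, 3 fell and 1 rose, with a median of -0.08. The transmembrane glycoprotein GPNMB read 10.37 at the lowest, 10.50 at the median and 10.73 at the highest in cohort 7a ethanol animals, against a range of 10.83 to 11.04 in controls, and it averaged 10.78 ± 0.07 (SD) in the 5 ethanol animals of cohort 7b and 11.50 ± 0.21 (SD) in the 2 controls. The groups did not overlap in either cohort, and over all cohorts GPNMB fell by 0.34 on the log2 scale (SE 0.05, adjusted p = 1.5e-05), while its second probeset differed by -0.19 (adjusted p = 0.196). The lectin LGALS3 fell by 0.30 on the log2 scale (SE 0.09, adjusted p = 0.0098), as did the lysosomal peptidase CTSZ by 0.30 (adjusted p = 0.036, with 0.10 in cohort 5), and the lysosomal protease CTSD rose by 0.28 (SE 0.07, adjusted p = 0.00145). The second CTSD probeset differed by 0.14 (adjusted p = 0.175). Of the called pathway genes named here that had the same sign in every cohort, only IRF8, GPNMB and CTSD kept an adjusted p under 0.05 without cohort 7a.

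**Figure D5:**
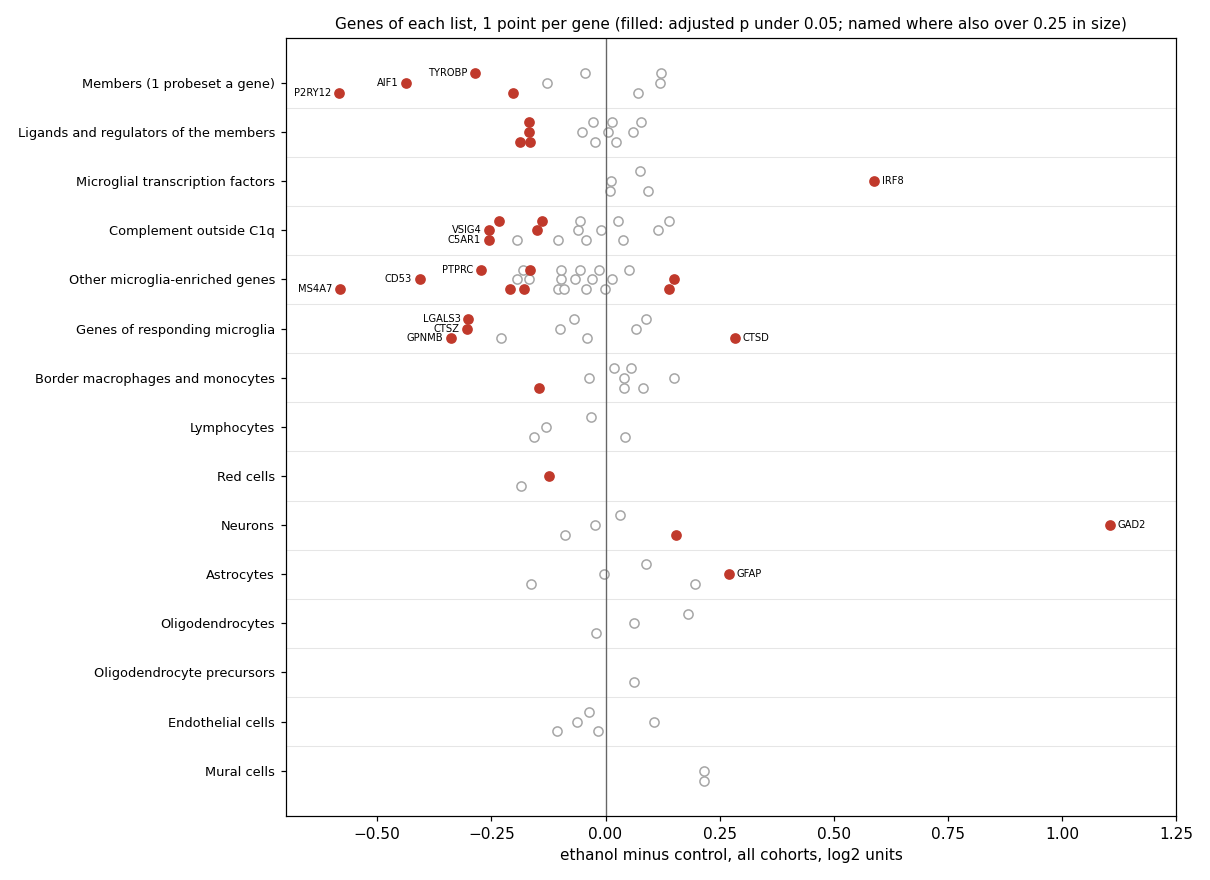
Ethanol minus control difference over all cohorts (horizontal axis, log2 units) of each tested gene in the members, the 5 pathway lists and the cell type marker lists (rows), 1 point per gene, filled where the adjusted p was under 0.05 and named where the size was also over 0.25. P2RY12 (-0.58), AIF1 (-0.44) and TYROBP (-0.29) stand at the low end of the members, and GAD2 (1.10) has the highest value of all lists.

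Of the 35 tested markers of 9 other cell classes, 2 were lower and 3 higher over all cohorts, beside 33.3% of all tested probesets in either direction. CCR2, a monocyte receptor, was the only 1 of 8 border macrophage and monocyte markers called (-0.15, adjusted p = 0.0457, and 0.184 with centred medians). Its group means lay between 3.31 and 3.61, close to the 3.5 of the filter on low values. The border macrophage and monocyte list averaged 5.93 ± 0.07 in cohort 7a ethanol animals and 5.98 ± 0.04 in controls, and 5.84 ± 0.05 in cohort 7b ethanol animals and 5.77 ± 0.01 in controls. None of the 4 lymphocyte markers was called, the lowest p being those of CD79A (-0.13, adjusted p = 0.0695) and GZMB (-0.16, adjusted p = 0.0833). Of 5 neuron markers, 2 were called higher (GAD2, which makes GABA, by 1.10, adjusted p = 7.41e-06, and the glutamate transporter SLC17A7 by 0.15, adjusted p = 0.0444) and 0 lower. GAD2 differed by 1.51 in cohort 7a and 2.22 in cohort 7b, whereas SLC17A7, GAD1, STMN2 and SYT1 lay between -0.11 and 0.26 in these cohorts and none of the 4 was called in either. A second, dimmer GAD2 probeset was higher by only 0.32 over all cohorts (adjusted p = 0.00134), so that the size for GAD2 depends on the probeset. Of all 12 probesets of the neuron markers, 3 were higher and 2 lower over all cohorts. With GAD2 included, the neuron list averaged 10.93 to 11.12 in single cohort 7a ethanol animals, against 10.51 to 10.80 in controls, and 10.96 to 11.30 in cohort 7b ethanol animals, against 10.58 to 10.74 in controls. Of 5 astrocyte markers GFAP was higher over all cohorts (0.27, adjusted p = 0.0261), with -0.01 in cohort 7a (adjusted p = 0.981) and 0.84 in cohort 7b (adjusted p = 0.000409). S100B was lower in cohorts 7a (-0.41, adjusted p = 0.0127) and 7b (-0.53, adjusted p = 0.0136), and the glutamate transporter SLC1A2 was higher in both (0.30, adjusted p = 0.0469, and 0.65, adjusted p = 0.00128). Of 2 red cell markers ALAS2 was lower over all cohorts (-0.12, adjusted p = 0.0354). None of 3 oligodendrocyte, 1 oligodendrocyte precursor, 5 endothelial and 2 mural markers was called over all cohorts, and their lowest p were those of MYRF (0.18, adjusted p = 0.0561), CNP (0.06, adjusted p = 0.126), CSPG4 (0.06, adjusted p = 0.465), CDH5 (-0.11, adjusted p = 0.323), VWF (0.11, adjusted p = 0.323), TAGLN (0.22, adjusted p = 0.398) and MYH11 (0.21, adjusted p = 0.52). In cohort 7b, however, 3 of the 5 endothelial markers were lower, namely CLDN5 (-0.36, adjusted p = 0.0462), PECAM1 (-0.41, adjusted p = 0.0127) and CDH5 (-0.43, adjusted p = 0.0311), and CNP was higher (0.18, adjusted p = 0.0327). Of all tested probesets, 26.1% were lower and 14% higher in that cohort. The part of these markers and of the actin value in the differences of the called members was not tested beyond the model with the actin value.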

How the data were processed

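Medial prefrontal cortex RNA of 43 animals was hybridized by the authors to Affymetrix Rhesus Macaque arrays, and the values they deposited are log2 intensities made with RMA in the affy package (named in the submitters' processing notes), background-corrected and quantile-normalized over all arrays together and not adjusted for batch. Of 52865 probesets, 25317 had a gene symbol, and 24151 remained after those under 3.5 in at least 80% of arrays were left out.

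Differences of ethanol and control were tested with limma 3.58.1 in R 4.3.3 (lmFit, eBayes), with cohort as a block over all 43 arrays, and within cohorts 5, 7a and 7b by contrasts in 1 fit with a mean for each of the 7 groups, which share 1 estimate of the spread. P-values were adjusted by Benjamini-Hochberg over all 24151 probesets and called under 0.05. Replicates are separate animals, 1 array each, so the number of arrays limits the precision, above all the 2 controls of cohort 7b. The 8 processing batches were recovered by setting the deposited values of 912 probesets against the study's batch-adjusted table, which served for nothing else. In 185 of 185 triples of arrays within a batch the adjusted values lay on 1 straight line of the deposited ones, probeset by probeset (residual limit 0.0002 on the log2 scale), and in 0 triples across batches.

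Gene lists, markers and members were chosen with earlier results of these data known. For each list, 1 probeset a gene (the highest mean) was used, and the up to 4 genes named were the called ones with the largest differences and the same sign in cohorts 5, 7a and 7b, or, where none was called, up to 2 with the lowest p. TGFBR2, VSIG4, C1S, CD68, MS4A7, LY86, LY96, CTSZ, GFAP, S100B, SLC1A2, GAD1, STMN2, SYT1, CLDN5, PECAM1, ALAS2, TMEM119, CX3CL1, CSF1, IL34 and further probesets of a gene were named outside this rule, after their values had been seen. Tested on simulated data for the comparison over all cohorts (24151 probesets), the fit called 68.7% of changes of 0.3, 97% of changes of 0.6 and 100% of changes of 1 on the log2 scale, and 4.32% of its calls were false. The simulation had independent normal noise around cohort means and no batches. It changed 67, 67 and 66 probesets, by the same amount in every cohort. The measured arrays differ from it in batches and in effects that vary by cohort, so these rates need not hold for them. Alternatives were other blocks, the actin value as a covariate, centred array medians, no filter, a stricter threshold, and leaving out cohorts or single animals. With the batch as a block, the contrast between cohorts pooled the ethanol animals of cohorts 4 and 5, and those of cohorts 7a and 7b. Fits with the batch as a block over several cohorts also compare cohorts, since some batches held controls of only 1 of their cohorts. No sequences are shown.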

Additional observations from a re-analysis of the deposited data

Results flagged for a closer look

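In 4 of 60 pairs of a member probeset and a group of 4 to 10 animals, 1 animal lay far from the others of its group, and chance alone gives about 1 in 20. In cohort 7a ethanol animals, replicate 31 read 8.18 for CSF1R (next highest 7.92) and 7.40 for C1QB (next highest 7.14). For C1QA on MmuSTS.1957.1.S1_at, cohort 7b ethanol replicate 43 read 8.78 (next highest 8.23), and cohort 7a control replicate 25 read 7.45 (next lowest 7.97).

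For 7 probesets the mean effect of ethanol in cohorts 7a and 7b differed from that in cohort 5 by the test of the difference itself in limma. P2RY12 differed by -1.05 on MmugDNA.13354.1.S1_at (adjusted p = 0.000251) and by -0.89 on MmuSTS.543.1.S1_at (adjusted p = 0.000524). AIF1 on MmugDNA.10834.1.S1_at differed by -0.77 (adjusted p = 0.00111) and CX3CR1 by -0.38 (adjusted p = 0.0053). TREM2 differed by -0.27 (adjusted p = 0.0286), C1QA on MmugDNA.2736.1.S1_at by -0.30 (adjusted p = 0.0328) and C1QC by 0.38 (adjusted p = 0.0192). Cohorts 7a and 7b also differed from cohort 5 in extraction kit and processing group, which cannot be told apart from the cohorts.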

How the results depend on the processing

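No called member result changed direction under any alternative run. Over all cohorts, 5 member probesets were called, but 2 with the actin value, while no block and the batch block gave 4 each. Alternatives chosen after seeing the data gave 2 with batch block and actin value, 0 without cohort 7a, 1 without cohort 7b and 5 with cohorts 7a and 7b alone and the batch block. In cohort 7a the count was 6, and 3 with the actin value. In cohort 7b the count was 5. That cohort alone with the batch as a block gave no check, since its treatments shared a batch only in ethanol replicate 40 and control replicate 38. For the difference between cohorts the count was 7, and 4 at an adjusted p of 0.01 or under. Animals were left out singly only in groups of 5 or fewer, that is the 11 controls and the 5 cohort 7b ethanol animals, and not the ethanol animals of cohorts 4, 5 and 7a. This gave 5 to 5 over all cohorts, 0 to 0 in cohort 5, 4 to 6 in cohort 7a, 3 to 8 in cohort 7b (3 without control replicate 37, 8 without ethanol replicate 41) and 4 to 7 for the difference between cohorts (4 without control replicate 37). Over all tested probesets the same steps gave 6046 to 8526 over all cohorts, 0 to 0 in cohort 5 and 5608 to 6967 in cohort 7a. They gave 6726 to 9832 in cohort 7b and 6457 to 7798 for the difference between cohorts. Fewer animals enter where a cohort or an animal is left out, and otherwise the cause was not tested. Over all tested probesets the count for all cohorts, 8044, was 3901 without a block, 3775 with the actin value, 1679 with batch block and actin value, 5041 at 0.01, 1876 without cohort 7a and 2865 without cohort 7b. The 7468 of cohort 7a became 3288 in that cohort alone with the batch block, 4712 with the actin value and 4615 at 0.01. The 7633 for the difference between cohorts became 5041 at 0.01. No paired analysis was possible because every animal has a replicate number of its own.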
